A study of Drosophila melanogaster with 20 samples.

Results

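Pxn, NimC1 and Lectin-galC1 are genes of Drosophila melanogaster that code for proteins of blood cells, of the matrix those cells make, and of sugar recognition. They were taken as all spots whose only annotated gene symbol was 1 of these 3 names, which gave 6 spots, 2 per gene, and 3 genes of 2377 with a single symbol on the array. The 2 spots of a gene were averaged on each array.

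The study measured transcript levels in adult females of the Oregon-R strain, 4 to 10 days old, that had been sprayed from a Potter's tower with 2 mL of solution and were sampled 6 h later. The groups were a combination of black pepper seed extract (Piper nigrum, ethyl acetate extract) at 0.1 mg/mL with pyrethrin at 0.004 mg/mL, pyrethrin alone at 0.04 mg/mL, the pepper extract alone at 0.2 mg/mL, and 99% ethanol, the carrier, which every group received. Each of the 20 spotted cDNA arrays set a treated RNA extract in 1 dye against an ethanol extract in the other, and there were 12 treated extracts, 4 per treatment. Those of the combination and of the pepper extract were each hybridised on 2 arrays with the dyes exchanged, while those of pyrethrin were hybridised on 1 array each, with the treated RNA in Cy3, against 2 shared ethanol extracts. Every extract pooled about 240 flies kept at 60% humidity and 16 h of light to 8 h of dark, so a value averages over many animals and all their tissues. The labels number the extracts as replicates but do not say whether they came from separate cohorts, so p-values measure the spread between these extracts. The titles number the ethanol extracts 1 to 4 in the combination and the pepper extract and 3 and 4 in pyrethrin, while the source names also give the treatment, so whether treatments shared ethanol extracts is not settled. They were taken as separate, and if they were shared, the 12 treated extracts were set against only 4 ethanol extracts.

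Hemocytes are the circulating and tissue-bound blood cells of the fly. Most of them are plasmatocytes, macrophage-like cells that take up microbes and dead cells and that lay down extracellular matrix. Pxn codes for peroxidasin, a heme peroxidase that is secreted into basement membranes, where peroxidasins crosslink collagen IV, and it is widely used as a hemocyte marker. NimC1 codes for a transmembrane receptor of the Nimrod family that plasmatocytes carry and use for the uptake of bacteria. Lectin-galC1 codes for a secreted C-type lectin, a calcium-dependent sugar-binding protein, with a preference for galactose. Insects use such lectins among other things to bind sugars on microbial surfaces.

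The deposited values are log2 ratios, and the labels do not say which RNA is the numerator. The titles, apart from the 2 that name another study, put the treated RNA before ethanol whichever dye it carried. The values were read as treated over ethanol, a direction that is likely but not stated. Its basis is that the paired arrays of an extract, after the mean of their treatment and dye orientation was removed, correlated across all features with a mean of 0.217, positive in 8 of 8 extracts (exact one-sided permutation p = 0.00174 over 576 pairings). Arrays that were not partners had a mean of -0.0723. Removing the means forces such a negative value when partners correlate above 0, so it adds no evidence. Another study is named in the titles of 2 pepper extract arrays, replicates 3 and 4 with the treated RNA in Cy5, and values without these 2 arrays are given with the results below. Where only the arrays are left out, the 2 extracts keep a Cy3 array, to which a dye correction from the other exchanged extracts is applied. Of 16896 spots, 5.36% of values were missing, and 11526 features were measured in at least 3 of 4 extracts of every treatment and tested. All 3 genes were among these features. The number of extracts limits the precision, and the median standard error of a log2 ratio over all features was 0.124 for the combination, 0.129 for pyrethrin and 0.124 for the pepper extract. A ratio gives no absolute level, so no level of any gene is set against that of another here.

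Pxn, the peroxidase of the matrix, was not called different from ethanol after any treatment. In the combination its log2 ratios with the treated RNA in Cy5 were -0.22, -0.14, -0.21 and -0.07 for replicates 2, 4, 5 and 6. With the treated RNA in Cy3 they were -0.09, 0.45, -0.02 and 0.37. All 4 Cy5 arrays were below 0, while the Cy3 arrays were split, with replicates 4 and 6 high. The 4 pyrethrin arrays, all in Cy3, gave 0.34, -0.09, 0.36 and 0.20 for replicates 1, 2, 4 and 5, so that replicate 2 alone was below 0. In the pepper extract the Cy5 arrays of replicates 1 to 4 gave 0.0025, -0.54, -0.08 and -0.26, and the Cy3 arrays gave -0.08, -0.15, -0.13 and 0.16. Replicate 2 was the lowest of the pepper extracts in both orientations.

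Averaged over both dye orientations, Pxn was below ethanol in 4 of 4 pepper extracts (-0.04, -0.34, -0.10 and -0.05), and 6.29% of the features measured in all 4 pepper extracts were below 0 in each of them. Its fitted log2 ratio was 0.0094 ± 0.10 in the combination, 0.08 ± 0.11 in pyrethrin and -0.13 ± 0.10 in the pepper extract (SE, n = 4 each; -0.16 without the 2 arrays with foreign titles). The 95% intervals ran from -0.21 to 0.22, from -0.15 to 0.30 and from -0.35 to 0.08, in the same order. All 3 intervals held 0, and none of the values passed (limma, Benjamini-Hochberg adjusted p = 0.987, 0.848 and 1). The pepper extract value was -0.06 without replicate 2, and the pyrethrin value was 0.17 without replicate 2 and 0.02 without replicate 4. In RNA of whole flies, fewer hemocytes and less RNA of a gene per hemocyte cannot be told apart, for Pxn as for NimC1.

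**Figure D1:**
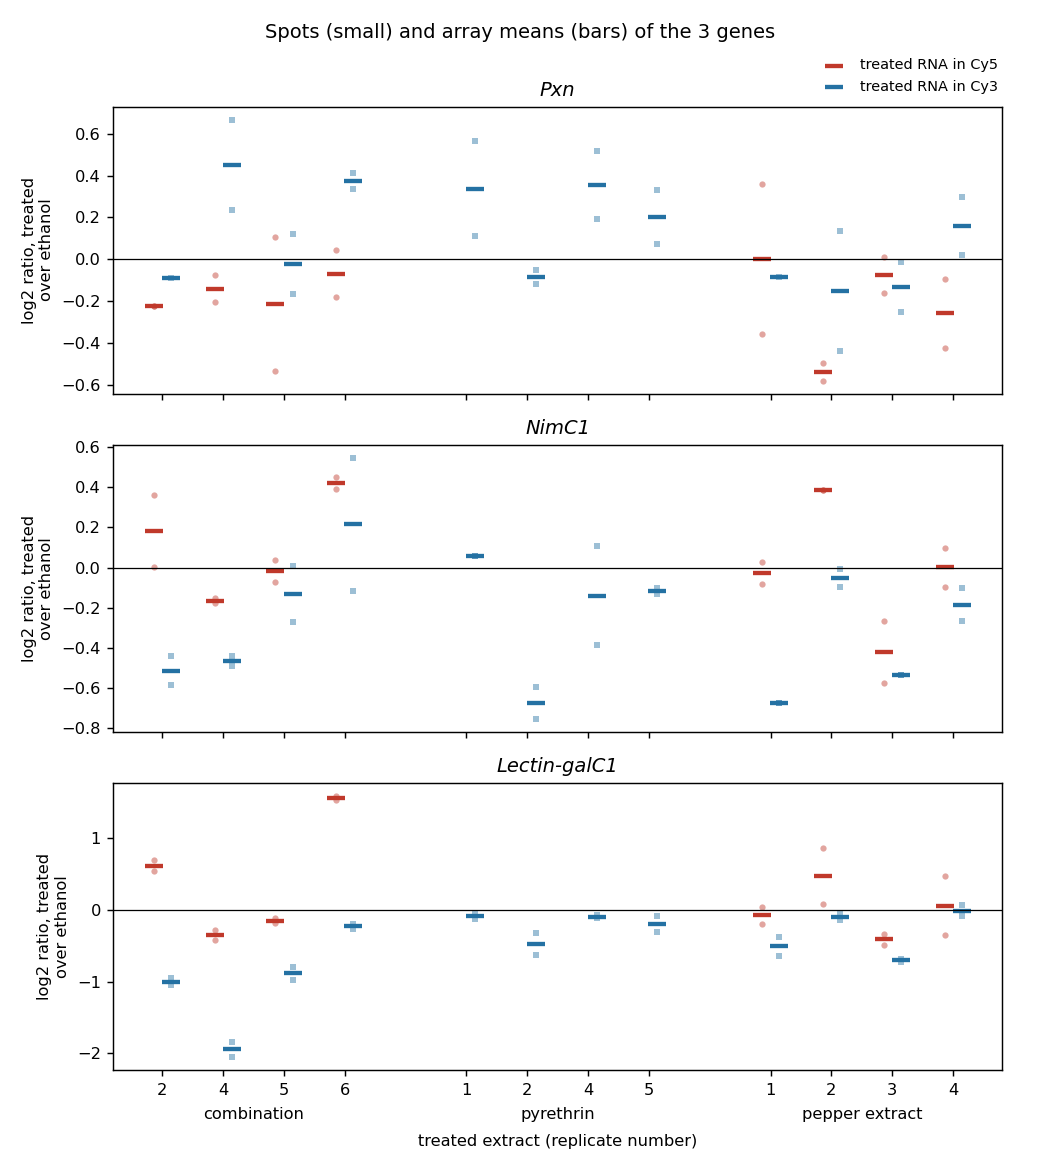
Log2 ratio of treated over ethanol RNA (vertical axis) of each gene for the 12 treated extracts (horizontal axis, by treatment and replicate number). Small marks are the single spots and bars their mean on an array, red where the treated RNA was in Cy5 and blue where it was in Cy3. Pyrethrin has Cy3 arrays only, and the blue bars of Lectin-galC1 are below 0 in 12 of 12 extracts.

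NimC1, the phagocytic receptor, was not called different from ethanol either, and had a wider spread between extracts than Pxn. In the combination its log2 ratios in Cy5 were 0.18, -0.16, -0.02 and 0.42 for replicates 2, 4, 5 and 6. The Cy3 arrays of the same extracts gave -0.51, -0.47, -0.13 and 0.22, each lower than its partner. Replicate 6 was the highest extract in both orientations. The pyrethrin arrays gave 0.06, -0.67, -0.14 and -0.12 for replicates 1, 2, 4 and 5, with replicate 2 far lower than the others. In the pepper extract the Cy5 arrays of replicates 1 to 4 gave -0.03, 0.39, -0.42 and 0.0019, and the Cy3 arrays gave -0.67, -0.05, -0.53 and -0.18. Replicate 2 was high and replicate 3 low among the pepper extracts in Cy5, and in Cy3 replicate 1 was the lowest.

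The fitted log2 ratio of NimC1 was -0.06 ± 0.14 in the combination, -0.05 ± 0.14 in pyrethrin and -0.19 ± 0.14 in the pepper extract (SE, n = 4 each; -0.13 without the 2 arrays with foreign titles). The extracts lay on both sides of 0 in every treatment: 3 of 4 were below it in the combination, 1 of 4 in pyrethrin and 3 of 4 in the pepper extract. The 95% intervals, -0.35 to 0.23, -0.36 to 0.26 and -0.48 to 0.10, all held 0 (limma, Benjamini-Hochberg adjusted p = 0.922, 0.931 and 1). The pyrethrin value turned to 0.10 without replicate 2, and the pepper extract value was -0.31 without replicate 2 and -0.09 without replicate 3.

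Lectin-galC1, the galactose-binding lectin, had the widest spread of the 3 genes in the combination and in the pepper extract, and the narrowest in pyrethrin. In the combination its log2 ratios in Cy5 were 0.61, -0.35, -0.15 and 1.56 for replicates 2, 4, 5 and 6. The Cy3 arrays of the same extracts gave -1.0, -1.94, -0.88 and -0.23. Every Cy3 array lay below its Cy5 partner, yet the order of the lowest and highest extract was kept: replicate 4 was lowest and replicate 6 highest in both orientations. The pyrethrin arrays gave -0.09, -0.48, -0.10 and -0.20 for replicates 1, 2, 4 and 5. In the pepper extract the Cy5 arrays of replicates 1 to 4 gave -0.08, 0.47, -0.41 and 0.06, and the Cy3 arrays gave -0.51, -0.10, -0.70 and -0.0089. Replicate 3 was the lowest pepper extract in both orientations.

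With both orientations averaged, the 4 combination extracts stood at -0.19, -1.15, -0.52 and 0.67, an SD of 0.756. The median SD over all tested features in the combination was 0.247, and 98.4% of features had an SD no larger than that of Lectin-galC1. The pyrethrin extracts, after the correction for dye described next, stood at 0.36, -0.03, 0.35 and 0.25, and the pepper extracts at -0.29, 0.19, -0.56 and 0.03. The fitted log2 ratio was -0.30 ± 0.21 in the combination, 0.23 ± 0.22 in pyrethrin and -0.16 ± 0.21 in the pepper extract (SE, n = 4 each). None of the 3 passed (limma, Benjamini-Hochberg adjusted p = 0.689, 0.752 and 1). These SEs come from a spread shared by all treatments, while the SDs of the extracts were 0.756, 0.182 and 0.331 in the same order. They therefore understate the scatter of the combination and overstate that of pyrethrin. The value of the combination was -0.01 without replicate 4 and -0.62 without replicate 6, and that of the pepper extract was -0.03 without replicate 3, -0.27 without replicate 2 and 0.08 without the 2 arrays with foreign titles. Without those arrays, replicates 3 and 4 keep only Cy3 arrays, which take the dye correction from the other exchanged extracts, so the 0.08 depends on it. Cy5 exceeded Cy3 by a mean of 1.43 in the combination, and by 0.29 and 0.07 in these 2 pepper extracts.

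The pyrethrin arrays were run in a single orientation, so their values depend on a dye correction borrowed from the other treatments: the mean dye term of the 8 exchanged extracts was added to every feature. For Lectin-galC1 this decided the sign. Without the correction its pyrethrin value was -0.21 ± 0.22, that of Pxn was 0.20 ± 0.11 and that of NimC1 was -0.22 ± 0.14 (SE, n = 4 each). None of these passed either (limma, Benjamini-Hochberg adjusted p = 0.641, 0.343 and 0.452). The standard errors of the corrected values leave out the error of the correction itself. A fit of all 20 arrays with dye as a term, which counts it, gave Lectin-galC1 the same 0.23 with a standard error of 0.29. Both the correction and this fit take the dye term as the same in every treatment. For Lectin-galC1 it was 0.72 in the combination and 0.17 in the pepper extract. Added to -0.21, the first would put pyrethrin above 0 and the second below. Which of them holds for pyrethrin was not tested. The arrays with foreign titles enter this correction, and without them the pyrethrin values were 0.35 for Lectin-galC1, 0.06 for Pxn and -0.02 for NimC1.

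Of the 3 genes, 0 passed an adjusted p of 0.05 for any treatment against ethanol. Over all tested features the share that passed was 0% after the combination, 0.0781% after pyrethrin and 0% after the pepper extract. With unadjusted p-values at the same threshold the shares over all features were 8.67%, 10.3% and 3.24%, and again 0 of the 3 genes passed. Averaged over the 3 treatments, Pxn stood at -0.02 ± 0.06, NimC1 at -0.10 ± 0.08 and Lectin-galC1 at -0.08 ± 0.12 (SE, 12 extracts), where 0.0954% of features passed and 0 of these 3 did. Their limma adjusted p-values (Benjamini-Hochberg) were 0.975, 0.864 and 0.947. Without the 2 arrays with foreign titles the means were -0.03, -0.07 and 0.04.

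**Figure D2:**
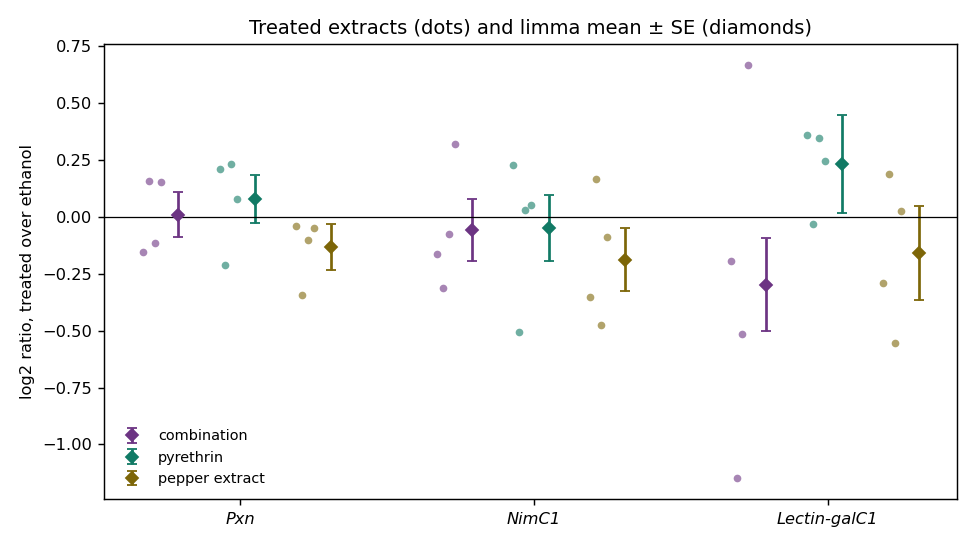
Log2 ratio of treated over ethanol RNA (vertical axis) for the 3 genes (horizontal axis) and the 3 treatments (colours). Dots are the 4 treated extracts of a treatment, with exchanged dyes averaged or, for pyrethrin, the dye correction applied; diamonds and bars are the limma mean and its standard error. The dots of Lectin-galC1 in the combination spread the widest, between -1.15 and 0.67.

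The treatments were then compared with each other, at doses that differ, so that these are differences between sprays and not tests of how the 2 agents act together. Lectin-galC1 had the largest difference: it averaged -0.30 in the combination (SD 0.756) and 0.23 in pyrethrin (SD 0.182, n = 4 each), a difference of -0.53 ± 0.30 (SE) with a 95% interval from -1.16 to 0.11. It did not pass (limma, Benjamini-Hochberg adjusted p = 0.489). It was -0.19 without combination replicate 4, -0.78 without combination replicate 6, -0.65 without the arrays with foreign titles and -0.08 without the dye correction. That correction takes the same dye term for all treatments, while that of Lectin-galC1 was 0.72 in the combination and 0.17 in the pepper extract. Between the combination and the pepper extract Lectin-galC1 differed by -0.14 ± 0.29 (SE; interval -0.76 to 0.48; -0.38 without the arrays with foreign titles), and between pyrethrin and the pepper extract by 0.39 ± 0.30 (SE; interval -0.25 to 1.02; 0.26 without those arrays). In both comparisons with pyrethrin the differences of the other 2 genes were smaller in size, and between the combination and the pepper extract that of Pxn was about as large.

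Pxn differed by 0.14 ± 0.14 between the combination and the pepper extract, by -0.07 ± 0.15 between the combination and pyrethrin, and by 0.21 ± 0.15 between pyrethrin and the pepper extract (SE; intervals -0.16 to 0.45, -0.38 to 0.24 and -0.10 to 0.52). NimC1 differed by 0.13 ± 0.19, -0.0094 ± 0.20 and 0.14 ± 0.20 in the same comparisons (SE; intervals -0.28 to 0.54, -0.43 to 0.41 and -0.28 to 0.56). Without the arrays with foreign titles these differences were 0.17, -0.05 and 0.22 for Pxn and 0.07, -0.04 and 0.11 for NimC1. Over the 9 differences of the 3 genes, 0 passed, as did 0% of all features in each of the 3 comparisons. The uncertainty of the dye correction is not part of the intervals with pyrethrin, which are therefore too narrow: in the fit of all 20 arrays the combination minus pyrethrin had a standard error of 0.353 for Lectin-galC1, next to 0.298 here. That fit, too, takes dye to act alike in all treatments.

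The values of Lectin-galC1 differed between dye orientations. Its Cy3 arrays were below 0 in 12 of 12 cases (lowest -1.94, median -0.35, highest -0.0089), whereas its Cy5 arrays were below 0 in 4 of 8 (lowest -0.41, median -0.0077, highest 1.56). The Cy5 array was above the Cy3 array of the same extract in 8 of 8 extracts, and 8.76% of the features measured in all 8 had this pattern. The mean difference of Cy5 minus Cy3 was 0.89 (SD 0.676, n = 8), a 1.85-fold ratio. The dye term, which is how far the Cy5 array lay above the mean of its pair, was 0.44 ± 0.06 (SE, n = 8) and passed (limma, Benjamini-Hochberg adjusted p = 0.00071; 0.48 without the extracts of the arrays with foreign titles). NimC1 had a dye term of 0.17 ± 0.05 (SE, n = 8), also above 0 in 8 of 8 extracts (limma adjusted p = 0.032). That call was lost without any 1 of 4 extracts, replicates 2 and 4 of the combination and 1 and 2 of the pepper extract (limma adjusted p = 0.0524 to 0.0854), and for 1 of its 2 spots (0.0895). Pxn had a dye term of -0.13 ± 0.05 that did not pass (limma adjusted p = 0.0883). A dye term past the threshold was common, at 32% of the 11529 features tested for it, so the 2 of 3 genes called here are to be read against that share.

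For Lectin-galC1 the difference between dyes was larger in the combination than in the pepper extract, in a test whose call depended on single extracts. In the combination the Cy5 array exceeded the Cy3 array by 1.62, 1.59, 0.73 and 1.79 in replicates 2, 4, 5 and 6, a mean of 1.43 (SD 0.474) or 2.70-fold. In the pepper extract it did so by 0.43, 0.57, 0.29 and 0.07 in replicates 1 to 4, a mean of 0.34 (SD 0.214) or 1.27-fold. The ranges did not overlap, but the share of all features with this pattern was not counted. The dye term differed by 0.55 ± 0.12 between the combination and the pepper extract (SE, limma, Benjamini-Hochberg adjusted p = 0.0366, where 2.02% of features passed). The fit behind this test read all values as Cy5 over Cy3. It also held the pyrethrin extracts, which had no dye exchange, so they enter its residual spread. Leaving out 1 extract at a time gave differences of 0.49 to 0.66, which passed in 2 of 8 cases, without pepper extract replicate 2 (limma adjusted p = 0.0432) or combination replicate 5 (0.0181), and not in the other 6 (0.0678 to 0.086). The smallest pepper extract differences, 0.29 and 0.07, come from the pairs that hold the arrays with foreign titles, and without these 2 extracts the dye terms differed by 0.47 ± 0.15 (SE; limma adjusted p = 0.226). In the combination 99.7% of features had a mean difference between dyes no larger than that of Lectin-galC1. For NimC1 the mean difference of Cy5 minus Cy3 was 0.33 (SD 0.257) in the combination and 0.35 (SD 0.244) in the pepper extract, and for Pxn it was -0.34 (SD 0.215) and -0.17 (SD 0.272). Their dye terms differed between the 2 treatments by -0.0084 ± 0.12 and -0.09 ± 0.11 (SE; limma adjusted p = 0.982 and 0.74).

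**Figure D3:**
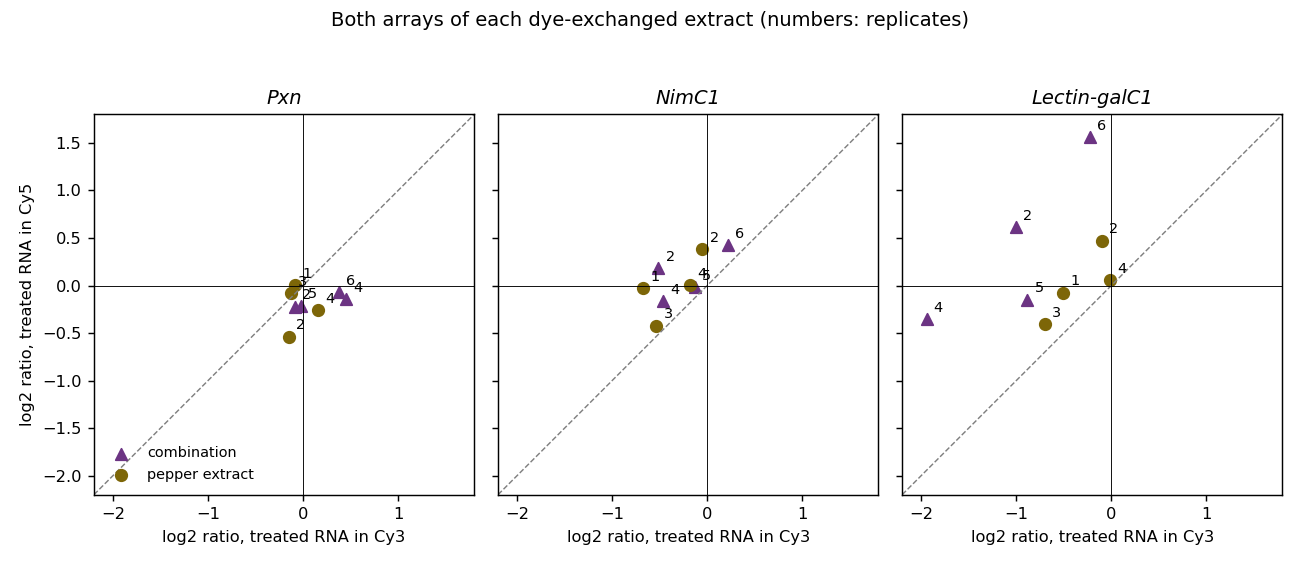
Log2 ratio of treated over ethanol RNA with the treated RNA in Cy5 (vertical axis) against the ratio of the same extract with the treated RNA in Cy3 (horizontal axis), for the combination (triangles) and the pepper extract (circles), with replicate numbers. Points on the dashed line would have equal values in both orientations. All 8 points of Lectin-galC1 lie above it, the 4 of the combination by 0.73 to 1.79 and the 4 of the pepper extract by 0.07 to 0.57.

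Because the numerator is not stated, these differences between dyes bear on the direction of the results. If the values were Cy5 over Cy3 on every array, the sign of the Cy3 arrays would turn, and the dye term of an exchanged extract would become its log2 ratio of treated over ethanol. Read that way, Lectin-galC1 stood at 0.72 in the combination and passed (limma, Benjamini-Hochberg adjusted p = 0.00083), where 16.5% of features passed. It then stood at -0.01 in pyrethrin and at 0.17 in the pepper extract, which did not pass. The combination then exceeded pyrethrin by 0.73 (limma adjusted p = 0.0494, where 0.469% of features passed), and the mean of the 3 treatments was 0.29 (limma adjusted p = 0.0024, where 28.4% passed). Pyrethrin values in this reading again hold a correction from the exchanged extracts, whose error the standard errors leave out. Here it is their average over both orientations, for Lectin-galC1 -0.30 in the combination (SD 0.756) and -0.16 in the pepper extract. Before the correction and the turn of sign, the pyrethrin arrays of Lectin-galC1 averaged -0.21. NimC1 read by channel stood at 0.16, 0.09 and 0.17 in the combination, pyrethrin and the pepper extract, and Pxn at -0.17, -0.26 and -0.08. The mean of Pxn was then -0.17 (limma adjusted p = 0.0208). On the Cy3 arrays alone, which hold all 3 treatments in 1 orientation, Lectin-galC1 stood at -1.01 in the combination (limma adjusted p = 0.0378, where 2.96% of features passed), -0.21 in pyrethrin and -0.33 in the pepper extract, and at -0.52 over the 3 treatments (limma adjusted p = 0.016, where 14.7% of features passed). The part of dye and of ratio direction in these values was not tested beyond the comparison of paired arrays given above.

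The duplicate spots show how precisely each gene was measured on an array. Over the 20 arrays the duplicate spots of Lectin-galC1 correlated at 0.921 and those of NimC1 at 0.76, while those of Pxn correlated at 0.357 over the 18 arrays that held both. These are descriptions of points that share their extracts and dyes. The median absolute difference between duplicates was 0.15 for Lectin-galC1, 0.11 for NimC1 and 0.265 for Pxn, against 0.209 over 8244 pairs of neighbouring spots. The 0.82 between the spots of Lectin-galC1 on the Cy5 array of pepper extract replicate 4, one of the arrays with foreign titles, was the widest gap of the 3 genes.

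The paired arrays also placed most extracts of Lectin-galC1 alike, though not in the same full order. Replicates 2 and 4 of the pepper extract changed places between orientations, as did replicates 2 and 5 of the combination. After the mean of each treatment and orientation was taken off, both arrays of an extract lay on the same side of it in 7 of 8 extracts for Lectin-galC1, in 6 of 8 for NimC1 and in 5 of 8 for Pxn. The share of all features with such counts was not taken, and partner arrays correlated above 0 across all features. Over all 12 extracts the SD was 0.499 for Lectin-galC1, which 95.6% of features did not exceed, 0.272 for NimC1 and 0.182 for Pxn, against a median of 0.259 over all features.

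The genes most like each of the 3 were found by Pearson correlation of the log2 ratios over the 12 extracts, among the 1930 other genes measured in all of them. The points share arrays, ethanol extracts and the dye correction, and the correlations are given as descriptions. Lectin-galC1 was most like Sec61beta (r = 0.97), a subunit of the channel that passes proteins into the endoplasmic reticulum, Obp57c (r = 0.961), an odorant-binding protein, and ITP (r = 0.958), a peptide hormone of ion transport. Within each orientation r was 0.974, 0.963 and 0.87 over the 8 Cy5 arrays and 0.94, 0.897 and 0.868 over the 12 Cy3 arrays. These arrays make up the values by which the 3 genes were picked, so these correlations, like the order of the extracts, are no separate support. All 3 were lowest in combination replicate 4 (-0.79, -0.79 and -0.66) and highest in combination replicate 6 (0.58, 0.72 and 0.33). Their differences between dyes were also higher in the combination (0.93, 1.64 and 0.75) than in the pepper extract (0.11, 0.62 and 0.51), which was not tested.

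**Figure D4:**
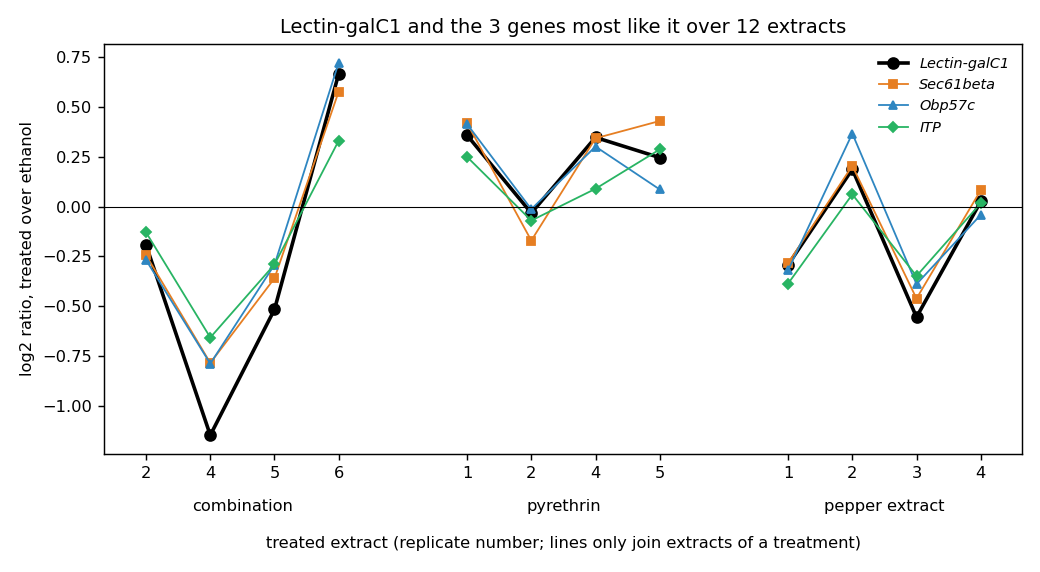
Log2 ratio of treated over ethanol RNA (vertical axis) of Lectin-galC1 and of the 3 genes with the highest correlation with it, in the 12 treated extracts (horizontal axis, by treatment and replicate number); lines only join the extracts of a treatment, and pyrethrin values hold the dye correction. All 4 genes are lowest in combination replicate 4 and highest in combination replicate 6.

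NimC1 was most like CG3544 (r = 0.934), Snx1 (r = 0.915), a sorting nexin of endosomes, and Rhau (r = 0.906), a helicase that unwinds folded nucleic acids. Its correlation with Lectin-galC1 was 0.718, at rank 151 among the genes, and both had replicate 6 of the combination high and replicate 4 low. Pxn was less like any gene, with Rcd6 (r = 0.771), Dhdds (r = 0.77), an enzyme of dolichol synthesis, and Ssl (r = 0.765) at the head. It correlated at 0.352 with NimC1 and at 0.185 with Lectin-galC1.

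The other genes of the same functions came from 8 lists with 278 symbols, of which 33 were on the array with a single symbol and 27 besides the 3 genes were tested. With ratios read as treated over ethanol, 0 of these 27 passed an adjusted p of 0.05 in any of the 3 comparisons with ethanol. The same held for any difference between treatments and for the mean of the treatments. With unadjusted p-values 1 of 27 passed after the combination, 3 of 27 after pyrethrin and 1 of 27 after the pepper extract, next to the 8.67%, 10.3% and 3.24% of all features. Read by channel some of them passed the adjusted threshold, among them lectin-37Da, Spn27A and Idgf3, given below. Of the hemocyte genes, Dscam1, an immunoglobulin-type receptor of many isoforms, stood at 0.0018, -0.06 and -0.12 in the combination, pyrethrin and the pepper extract. Pvr, the receptor kinase on which hemocyte survival depends, stood at -0.01, -0.06 and -0.02. The 4 hemocyte genes tested, Pxn and NimC1 included, had medians of -0.0050, -0.05 and -0.13 in the 3 treatments, where the medians of all features were 0.01, -0.0056 and 0.0043. All 4 were below ethanol in the pepper extract, between -0.19 and -0.02, as were 48.6% of all features, and 0 passed. The listed genes cher and Tep4 were measured in too few extracts to be tested. Of the defining markers, Pxn and NimC1 for hemocytes and apolpp for fat body were measured, and the others were not analysed here.

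Among the phagocytosis genes, NimB1, of the same Nimrod family as NimC1, stood at -0.02, 0.25 and -0.10 in the combination, pyrethrin and the pepper extract, and ced-6, an adaptor of engulfment receptors, at 0.02, -0.15 and 0.09. The 4 tested genes had medians of -0.0067, -0.06 and -0.11. Among the lectins, lectin-37Da, another C-type lectin, stood at -0.08 ± 0.13, 0.42 ± 0.13 and 0.23 ± 0.13 (SE, n = 4 each). Its pyrethrin value had an unadjusted limma p of 0.0078 and an adjusted p of 0.303. Read by channel, lectin-37Da stood at -0.06, -0.62 and -0.50 (limma adjusted p = 0.687, 0.042 and 0.0022). Its signs in pyrethrin and the pepper extract thus turned, in a reading where 103 and 2263 of 11526 features passed in those 2 treatments. The lectins tfc and fw, both C-type lectin genes, stood at -0.12, 0.17 and 0.10 and at -0.08, 0.11 and 0.18 (n = 3 each for fw). The median of the 5 lectins, Lectin-galC1 included, was -0.08 in the combination, 0.17 in pyrethrin and 0.10 in the pepper extract, with 4 of 5 below ethanol in the combination, as were 46.3% of all features, and 4 of 5 above it in pyrethrin, as were 48.6%. Without the dye correction 3 of 5 were above it in pyrethrin, Lectin-galC1 being then at -0.21.

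The matrix genes that share a compartment with peroxidasin stayed within 0.17 of ethanol in all 3 treatments. Among them vkg, a collagen IV chain, stood at -0.16, -0.06 and -0.08 in the combination, pyrethrin and the pepper extract, SPARC, a collagen-binding glycoprotein, at -0.08, -0.02 and 0.04, and Dg, dystroglycan, at 0.04, -0.17 and -0.03. Mp, a collagen of the XV and XVIII type, stood at -0.0048, 0.0017 and -0.06. The 7 tested matrix genes had medians of -0.0048, -0.02 and -0.06. Prx3, a mitochondrial peroxiredoxin and the other tested gene of the peroxidase list, stood at 0.09, -0.02 and -0.05, and the medians of Pxn and Prx3 were 0.05, 0.03 and -0.09.

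Spn27A, a serpin of the hemolymph that restrains the melanization protease cascade, had the largest mean over the 12 extracts among the list genes when ratios were read as treated over ethanol. Its log2 ratio was 0.27 ± 0.15 in the combination, 0.44 ± 0.15 in pyrethrin and 0.35 ± 0.15 in the pepper extract (SE, n = 4 each). With dyes averaged or corrected it was above ethanol in 12 of 12 extracts, as were 0.0998% of the features measured in all 12. Its mean of 0.35 ± 0.09 did not pass over all features (limma, Benjamini-Hochberg adjusted p = 0.245), and its sign rests on that reading. Read by channel, Spn27A stood at -0.26 in the combination, -0.50 in pyrethrin and -0.48 in the pepper extract, with a mean of -0.41 (limma adjusted p = 0.00072, where 28.4% of features passed). In the exchanged extracts these values are the dye term. In the pepper extract it exceeded the ratio of 0.35 in size, so the mean of the Cy5 arrays was below ethanol. In the combination it nearly equalled the ratio of 0.27, so the rise in both treatments lay in the Cy3 arrays. Idgf3, a chitinase-related growth factor of the hemolymph, stood at -0.09, 0.43 and 0.01, and the pyrethrin value had a limma adjusted p of 0.283. Read by channel, Idgf3 stood at 0.26, -0.47 and -0.24 (limma adjusted p = 0.0261, 0.0487 and 0.0293), so each sign turned. Of 11526 features, 1903, 103 and 2263 passed in these treatments in that reading. The lipoprotein gene apolpp, of fat body, stood at 0.12, -0.43 and 0.10 with standard errors of 0.32 to 0.37. The medians of the 3 genes of melanization and clotting were 0.12, 0.43 and 0.10.

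Of the signalling genes, Dif, an NF-kappaB factor of the Toll pathway, stood at 0.03, 0.32 and -0.04 in the combination, pyrethrin and the pepper extract, IKKbeta, a kinase of the Imd pathway, at -0.04, 0.22 and 0.08, and the receptor gene Toll-7 at -0.10, -0.09 and 0.03. Their medians were -0.04, 0.22 and 0.03. Of the fat body genes, bmm, a triglyceride lipase, stood at 0.12, -0.03 and 0.19, and Fbp2 at -0.07, -0.08 and -0.04. The 8 fat body and hemolymph genes had medians of 0.09, -0.10 and 0.10, with 6 of 8 above ethanol in the combination, 1 of 8 in pyrethrin (4 of 8 without the dye correction) and 6 of 8 in the pepper extract. Of all features, 53.7%, 48.6% and 51.4% were above ethanol.

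**Figure D5:**
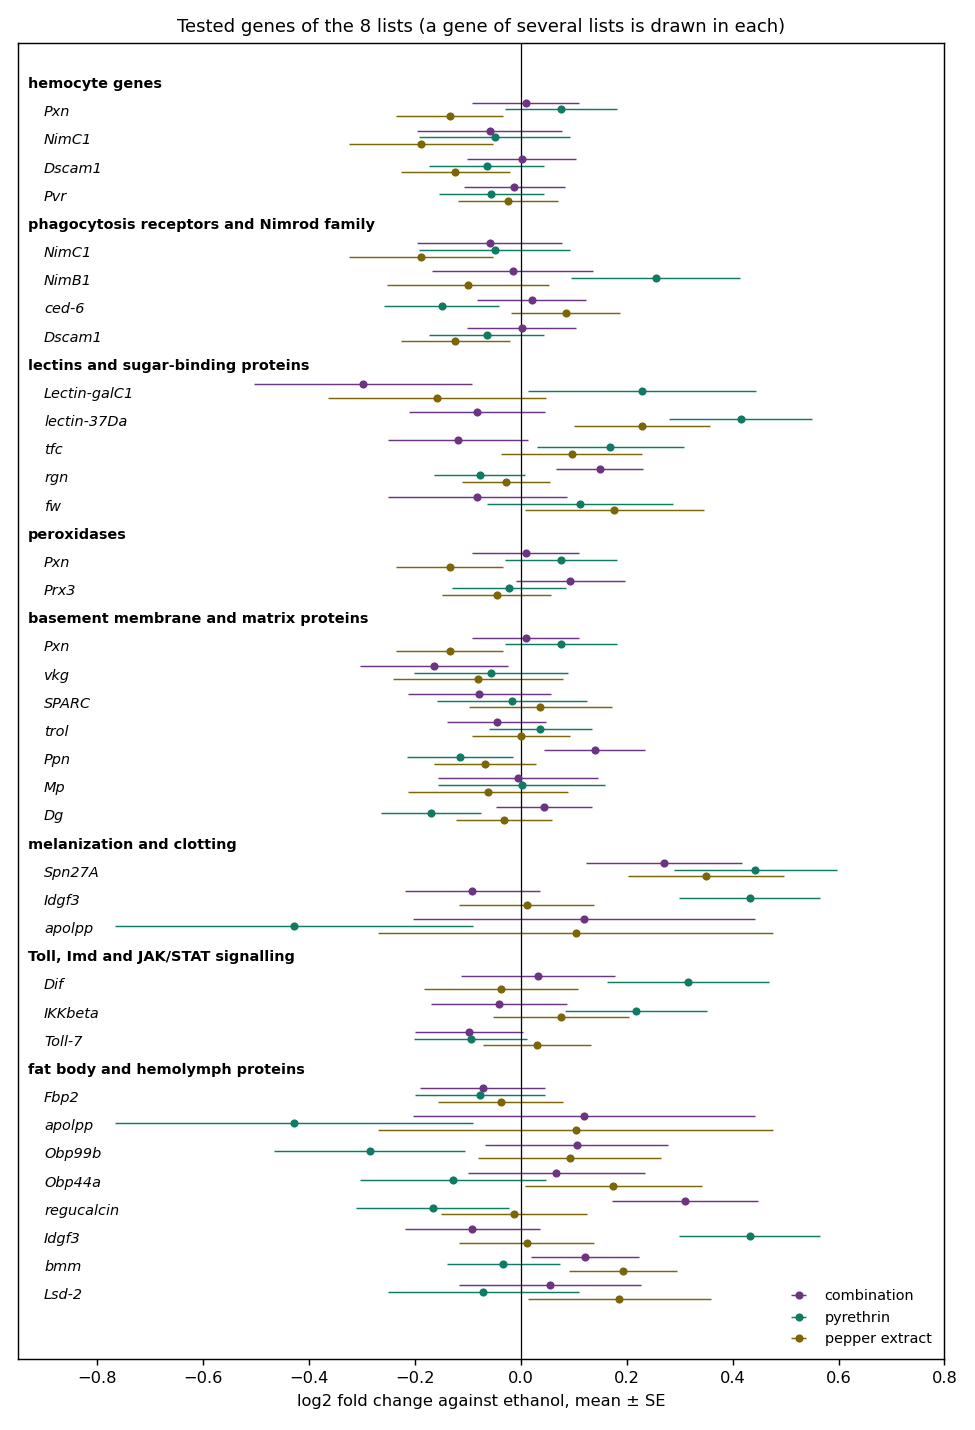
Limma log2 fold change against ethanol with its standard error (horizontal axis) for the tested genes of the 8 lists (rows), in the combination, pyrethrin and the pepper extract (colours, top to bottom within a row). Pxn, NimC1 and Lectin-galC1 are drawn with their lists, and Spn27A lies above 0 in each treatment, at 0.27, 0.44 and 0.35.

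Dye terms of the list genes passed in 7 of 27 cases, next to 32% of all features. They were -0.37 for Spn27A, -0.30 for bmm, -0.29 for Lsd-2, -0.28 for lectin-37Da, -0.25 for rgn, 0.21 for vkg and 0.16 for Obp99b. The 5 tested genes of the lectin list thus had dye terms of both signs. Those of Lectin-galC1 and fw (0.26) were above 0, and those of lectin-37Da, rgn and tfc (-0.0025) below it. The terms of fw and tfc did not pass.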

How the data were processed

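The authors deposited 1 table of log2 ratios, 1 column per array; the sources used here do not state their image analysis, normalization or numerator, and the base was taken from the largest value of 14.3, above the 11.1 that natural logarithms of 16-bit signals allow. Groups came from the channel source names. Members and gene lists were chosen with earlier results of these data known. The 3 genes were named throughout, up to 4 genes per list by size of the mean over 12 extracts, and 3 most similar genes per member.

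Each array's median (at most 0.0365 in size) was subtracted, spots of a symbol were averaged, and exchanged arrays were averaged. Pyrethrin arrays received the mean dye term (at least 4 pairs). A single model in R 4.3.3 with limma 3.58.1 and statmod 1.5.0 held the extracts. It had weights (1.01 for pairs, 0.976 for single arrays) and the ethanol extract as a random block (correlation 0.0583). The dye term was fitted over the 8 exchanged extracts. Its difference between the combination and the pepper extract came from a fit of all treated extracts with ratios read by channel. The residual spread of that fit includes the pyrethrin extracts, which had no dye exchange. Tests were two-sided, adjusted by Benjamini-Hochberg over all features with a threshold of 0.05. The scripts were tested on simulated data. Symbols matched the annotation in 2377 of 2377 cases. Replicate numbers shared between treatments were taken as not pairing extracts. Correlations of same-numbered deviations ran from -0.326 to 0.149, with 1 of 8 over 0.1. With so few extracts per treatment this cannot exclude pairing. Alternatives were the ratio direction, dye correction, orientation, centring, model, weights, blocks, filter, spots and omitted extracts. Signal intensities were not used here.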

Additional observations from a re-analysis of the deposited data

Results flagged for a closer look

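The contrast of Lectin-galC1 between dye orientations differed between treatments by a test of the difference itself. Its dye term was 0.72 in the combination and 0.17 in the pepper extract, and it was above 0 in 4 of 4 extracts of each treatment. The difference was 0.547 (limma, Benjamini-Hochberg adjusted p = 0.0366), from a fit that also held the pyrethrin extracts, which had no dye exchange. The call was lost without 1 extract in 6 of 8 cases (differences of 0.49 to 0.66 over all 8, limma adjusted p = 0.0181 to 0.086), and without the 2 pepper extracts that hold the arrays with foreign titles, which had the smallest differences between dyes of their treatment, the difference was 0.47 (limma adjusted p = 0.226). The part of labelling or hybridisation in it was not tested. Among 21 groups of 4 extracts or arrays examined for a value far from the others, 0 were found past Dixon's critical value of 0.829 for 4 values, where chance gives about 1 in 20.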

How the results depend on the processing

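Of 576 recomputed treatment values of the 3 genes over 28 alternatives, 512 kept their direction and their side of the threshold and 61 changed sign; 7 reached an adjusted p under 0.05, all read by channel or on Cy3 arrays alone, as the report gives. For each value below that changed sign, the cause was not tested. Read by channel, Lectin-galC1 was 0.72 in the combination, -0.014 in pyrethrin and 0.17 in the pepper extract, its differences 0.55 (combination minus pepper extract), 0.73 (combination minus pyrethrin) and -0.18 (pyrethrin minus pepper extract), and its mean 0.29; NimC1 was 0.16, 0.094 and 0.17 with differences of -0.0084, 0.070 and -0.078 and a mean of 0.14; Pxn was -0.17 in the combination and -0.26 in pyrethrin, with differences of -0.087, 0.095 and -0.18. The features that passed were then 1903, 103 and 2263 in the combination, pyrethrin and the pepper extract, 233, 54 and 9 in the 3 differences in that order, and 3270 in the mean. On Cy5 arrays alone, Lectin-galC1 was 0.42 in the combination and 0.012 in the pepper extract (difference 0.41), NimC1 0.11 and Pxn -0.16 in the combination, and 236 features passed in the pepper extract and 61 in the difference of the combination minus the pepper extract. On Cy3 arrays alone, Lectin-galC1 was -0.21 in pyrethrin and the mean of Pxn 0.11, with 370, 1, 247 and 1834 features in the combination, pyrethrin, the pepper extract and the mean. Without the dye correction Lectin-galC1 was -0.21 in pyrethrin and -0.055 in pyrethrin minus the pepper extract, NimC1 0.16 in the combination minus pyrethrin and -0.030 in pyrethrin minus the pepper extract, and the mean of Pxn 0.026; 148 features passed in pyrethrin, 26 in the mean and 1 each in the combination minus pyrethrin and in pyrethrin minus the pepper extract. Pyrethrin calls, 9 in the main model, were 0 in the fit of 20 arrays, 15 with no control block and 4 with features measured in at least 2 of 4 extracts; the mean, with 11, gave 20 in the fit of 20 arrays. With ethanol extracts of the same number taken as shared by all treatments, pyrethrin had 23 calls and the mean 27, and NimC1 was 0.010 in the combination minus pyrethrin. The replicate block, fitted with no control block, gave 0 calls in pyrethrin and 6 in the mean, Lectin-galC1 at 0.13 in the pepper extract, NimC1 at -0.16 in the combination minus the pepper extract and the mean of Pxn at 0.0063; it changed no other sign and no call of the 3 genes. Without the 2 arrays with foreign titles Lectin-galC1 was 0.085 in the pepper extract and 0.045 in the mean. In that setting the Cy3 arrays of pepper extract replicates 3 and 4 received the mean dye term of the other exchanged extracts. Without control extract 3 of pyrethrin, NimC1 was 0.041 in pyrethrin and the mean of Pxn 0.0095, with 1 call in the combination minus pyrethrin and 1 in the mean; without control extract 4, Pxn was -0.0011 in pyrethrin and 0.011 in the combination minus pyrethrin, and NimC1 0.081 in the same difference, with 0 calls in pyrethrin and 0 in the mean. With spots tested singly, Pxn was -0.025 (the combination) and 0.0046 (the mean) for spot 2 and -0.0055 (pyrethrin) and 0.082 (the combination minus pyrethrin) for spot 1, NimC1 0.0091 in the combination minus pyrethrin for spot 2, and its dye term 0.14 for spot 1, with a limma adjusted p of 0.0895. Leaving out 1 extract at a time gave 0 to 3 calls in the combination, 0 to 16 in pyrethrin, 0 to 2 in the combination minus pyrethrin and 0 to 24 in the mean. The values ran for Pxn from -0.039 to 0.064 (the combination) and -0.035 to 0.016 (the mean), for NimC1 from -0.18 to 0.026 (the combination), -0.14 to 0.10 (pyrethrin) and -0.16 to 0.083 (the combination minus pyrethrin), and for Lectin-galC1 from -0.46 to 0.14 (the combination minus the pepper extract) and -0.20 to 0.0021 (the mean). The dye term of NimC1 ran from 0.14 to 0.19 and did not pass without pepper extract replicate 1 or 2 or combination replicate 2 or 4 (limma adjusted p = 0.0524 to 0.0854). The difference in dye term between the combination and the pepper extract ran from -0.070 to 0.042 for NimC1. The fits without a pyrethrin extract or control extract, those of that difference and of shared ethanol extracts, the replicate block fit and the check of direction without the arrays with foreign titles (mean correlation 0.298) were set up as run here after seeing the data. With 4 extracts per treatment and no deposited intensities used, signal over background could not be weighed.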
